A study of Homo sapiens with 6 samples.

Results

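The nuclear receptor genes examined here form a fixed list of 44 names, chosen by membership of the gene family but with earlier results of these data known. Of these names, 38 had a row among the 21494 genes of the count table. RNA-seq was carried out on 6 libraries labelled as G361, a human melanoma cell line. The 3 Control sh libraries, labelled WT, came from mock-depleted control cells, and the 3 VprBP sh libraries, labelled as a DCAF1 knockdown, came from cells infected with a pLKO.1 lentivirus whose shRNA targets the coding region of VprBP, the protein encoded by DCAF1. VprBP is a kinase that phosphorylates histone H2A, and the comparison asks which genes change their transcript level once VprBP is depleted. Infected cells were selected with puromycin, so each group is a stable population, and only 1 shRNA against VprBP was used. The labels do not say whether the 3 libraries of a group came from separate cultures, so the p-values measure the spread between these libraries, which may be technical. The labels also name LD611 as the source of the material beside G361, and they name a library kit (SMARTER) that differs from the strand-specific KAPA kit of the published methods.

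Nuclear receptors are transcription factors that carry a zinc-finger DNA-binding domain and a pocket for a small fat-soluble ligand such as a steroid, a retinoid, a thyroid hormone, vitamin D, a fatty acid or an oxysterol. Many of them bind DNA as heterodimers with a retinoid X receptor, and without ligand several of these hold corepressors at their targets, which ligand exchanges for coactivators. Members with no known natural ligand are called orphan receptors and are set mainly by how much of them is made. In pigment cells and in melanoma, retinoid and vitamin D signalling are known for their effects on growth and differentiation.

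Of the 38 nuclear receptor genes in the table, 33 had enough reads to be tested, and 18 of these changed by more than 2-fold at an adjusted p under 0.05 by edgeR's quasi-likelihood test with Benjamini-Hochberg adjustment. A total of 9 rose in VprBP sh (NR3C2, RARB, PPARG, VDR, NR1H3, NR2F6, NR4A1, NR4A2 and NR4A3) and 9 fell (PGR, RARG, RXRA, PPARD, NR1D1, RORA, NR2F2, NR5A2 and HNF4G). With scaling by library size alone, which moved the overall median change of all genes to 0.29 on the log2 scale, the split was 11 higher and 7 lower. The summed level of the family went from a mean of 35315 normalized counts in Control sh to 34460 in VprBP sh. A normalized count is the estimated count of a gene after scaling each library by its upper quartile. The share of members called, 54.5%, stands beside 46.4% of the 16756 genes tested, with 24.5% of all genes called higher and 22% called lower, so that a change of this kind was common throughout the table. The 3 values of each group did not overlap in 26 members (78.8%), beside 79.5% of all genes tested. The median log2 fold change of the tested members was -0.15 and their median absolute log2 fold change 1.07, beside 0.08 and 0.92 over all genes tested. An adjusted p under 0.05 at any fold was reached by 27 members, beside 76.4% of all genes tested. Of the 33 tested members, 5 (PGR, NR3C2, RARB, NR5A2 and HNF4G) had fewer than 10 counts in every library of a group and were tested only through the group in which they were high. RORA, with 1, 6 and 12 counts in VprBP sh, and NR4A3, with 4, 4 and 11 in Control sh, likewise entered the test only through their high group. Because these are bulk libraries, fewer cells of one type and less RNA per cell cannot be told apart.

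**Figure D1:**
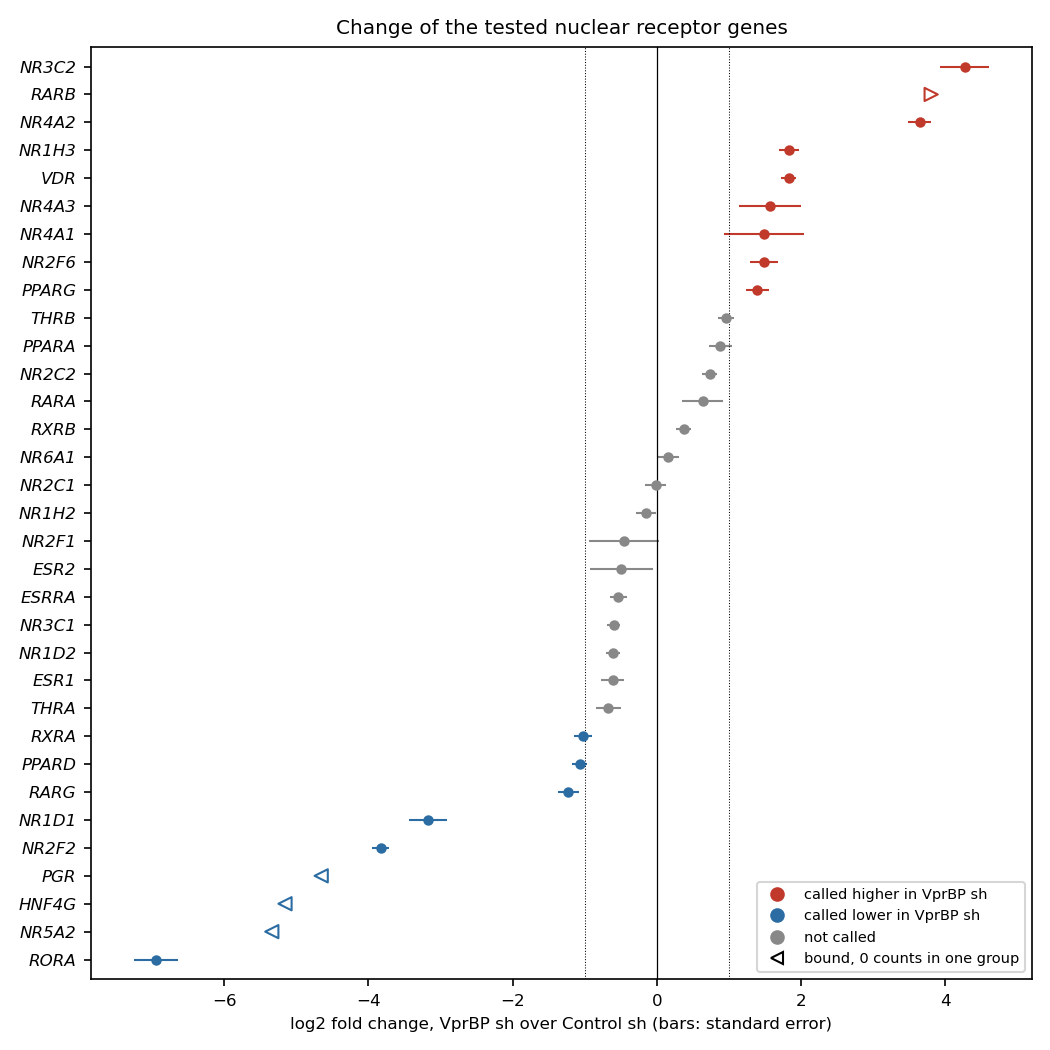
Log2 fold change of VprBP sh over Control sh for the 33 tested nuclear receptor genes, ordered by value, with bars for the standard error, dotted lines at 2-fold, and open triangles for the 4 genes with 0 counts in a whole group, drawn at their lower bound. The 9 genes that rose lie at the top and the 9 that fell at the bottom, and the 15 between them did not pass both thresholds.

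The libraries held between 18195949 and 26883948 counts each, and 3 counts, taken as the smallest number that can be read as detection, correspond to 2.30 to 3.48 normalized counts. DCAF1 itself read 798, 970.2 and 838 normalized counts in the Control sh libraries and 760.2, 507 and 482 in the VprBP sh libraries. Its log2 fold change was -0.58 ± 0.17 (SE, adjusted p = 0.0125), short of 2-fold, and the exact two-sided permutation test gave p = 0.10, the smallest that 3 against 3 allows. Melanocyte markers were scarce in both groups: 5 of 11 had a row, TYR, DCT, SOX10, S100B, SLC45A2 and OCA2 had none in the table analysed, MLANA and TYRP1 had at most 5 counts in a library, and the list summed to 216 to 258 counts in Control sh against 298 to 474 in VprBP sh. Urothelial markers (9 of 11 with a row) summed to 90610 to 121409 counts in Control sh against 27180 to 43698 in VprBP sh, where UPK1B was at 0 and TP63 at 8 to 13 counts. This sum was mostly the keratins KRT5 and KRT7. Their means went from 64989 and 35085 to 3488 and 21576 normalized counts, and KRT7 was not called. UPK3A and KRT20 had no row, and UPK1A had at most 5 counts in a library. GATA3 and FOXA1 were called higher, and UPK3B was higher short of 2-fold. Leukocyte markers (2 of 6) went from 636 to 920 counts down to 1 to 8, with no row for PTPRC, CD3E or LYZ. That sum was mostly CD68, the only leukocyte marker tested, which was called lower. Endothelial markers (5 of 5) went from 607 to 736 down to 29 to 53. Fibroblast markers (5 of 8) went from 698 to 810 to between 411 and 775. This last sum was mostly COL1A1, which was not called (log2 fold change -0.33). The other 3 fibroblast markers tested (COL1A2, LUM and PDGFRB) were all called lower. The fibroblast list's median log2 fold change was -3.05, with genes at 0 set at their bound. The mitochondrial share of counts went from between 1.96% and 1.98% in Control sh to between 4.10% and 4.48% in VprBP sh. The part of these differences in the receptor results was not tested. Whether the libraries are G361, and whether both groups came from the same cell line, was not tested either.

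**Figure D2:**
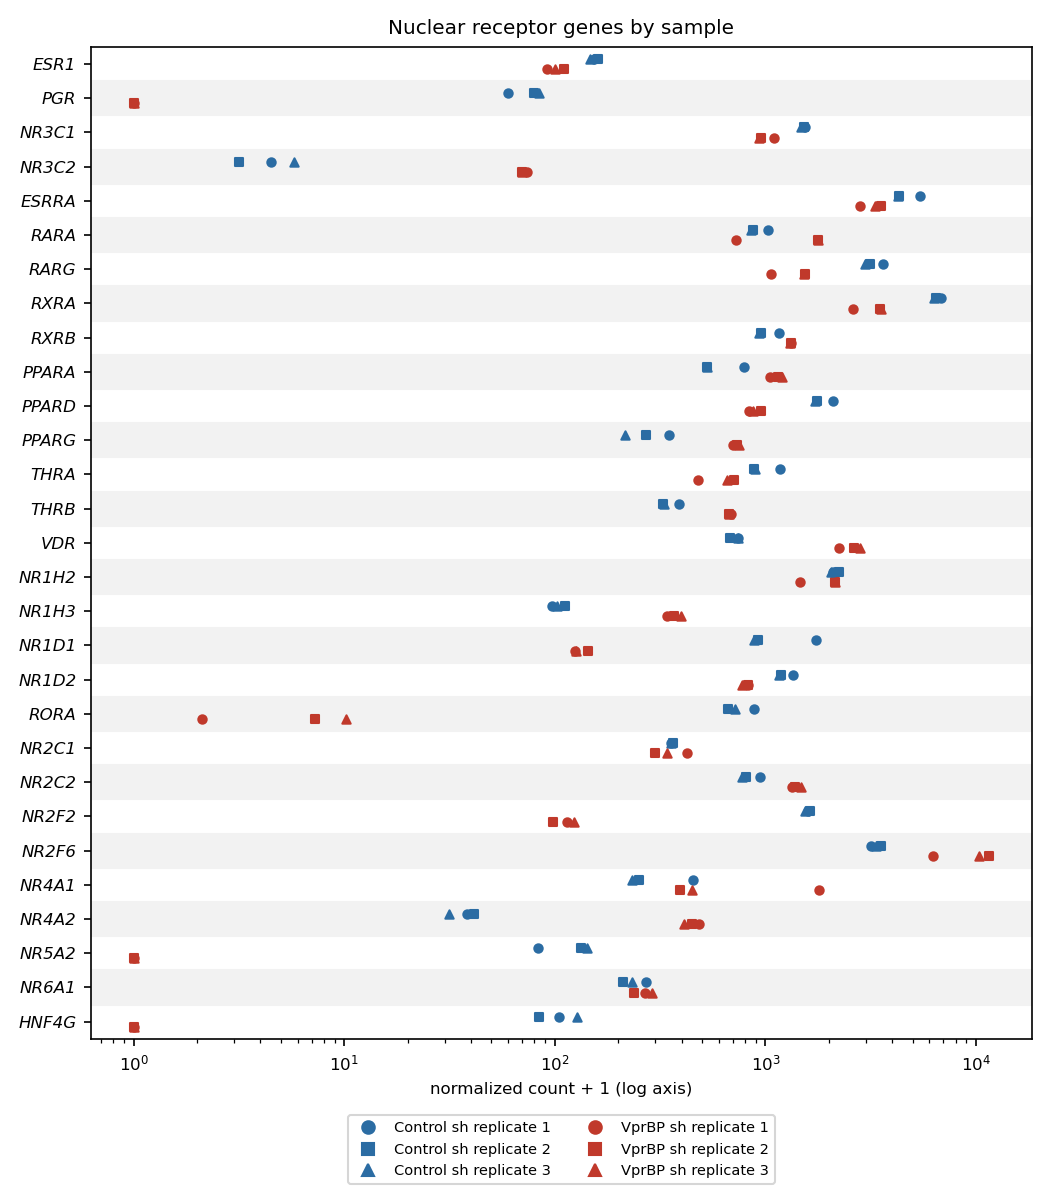
Normalized counts plus 1, on a log axis, for the 29 nuclear receptor genes whose group mean reached 50 normalized counts on at least one side, with one marker shape for each replicate number, Control sh in blue and VprBP sh in red. PGR, NR5A2 and HNF4G sit at 0 counts in all 3 VprBP sh libraries, while NR3C2 and NR4A2 are far higher there than in Control sh.

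The steroid hormone receptors, which carry estrogen, progesterone, glucocorticoid and mineralocorticoid signals to DNA, split between loss and gain. PGR (chromosome 11, 101029624 to 101129813, hg38), the progesterone receptor, read 59.1, 78.3 and 83.4 normalized counts in the Control sh libraries and 0 in all 3 VprBP sh libraries. Measured against the floor of 3 counts per library, averaged over the group, that is at least 25.2-fold lower. No read in any VprBP sh library was assigned to PGR, and the same held for 5 of the 38 members (PGR, ESRRB, RORB, NR5A2 and HNF4G), beside 5.34% of all genes in the table. NR3C2 (chromosome 4, 148078762 to 148444698), the mineralocorticoid receptor, went the other way, from 3.48, 2.17 and 4.74 normalized counts in Control sh to 72.6, 68.6 and 69.0 in VprBP sh (log2 fold change 4.27 ± 0.34 (SE), adjusted p = 2.32e-06). NR3C2 was tested only through VprBP sh. Its Control sh values lie near the floor, so its 20.2-fold ratio of means rests on few reads in that group.

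The glucocorticoid receptor NR3C1, which shares ligands and DNA sites with the mineralocorticoid receptor, was the more abundant of the pair per kb of exon in both groups, at 165 ± 3.94 against 0.524 ± 0.194 normalized counts per kb in Control sh and 109 ± 9.91 against 10.6 ± 0.333 in VprBP sh (SD, n = 3). NR3C1 read 1533, 1528 and 1469 normalized counts in Control sh and 1101, 955 and 934 in VprBP sh. All 3 VprBP sh values lay below all 3 Control sh values, but the difference was 1.51-fold (log2 fold change -0.60 ± 0.09 (SE), adjusted p = 2.29e-04) and did not reach 2-fold. ESR1, estrogen receptor alpha, read 153, 159 and 146 in Control sh and 90.4, 109 and 99.7 in VprBP sh, again without overlap and short of 2-fold (log2 fold change -0.61 ± 0.16 (SE), adjusted p = 0.00574). ESR2, estrogen receptor beta, stayed between 5.66 and 20.9 normalized counts over the 6 libraries, with overlapping groups (adjusted p = 0.324).

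Among the estrogen-related receptors, orphan relatives of the estrogen receptors that regulate mitochondrial and energy genes, ESRRA was, per length of exon, one of the most abundant transcripts of the family. ESRRA read 5409, 4301 and 4254 normalized counts in Control sh and 2795, 3539.7 and 3314 in VprBP sh. Every VprBP sh value was below every Control sh value, and the log2 fold change was -0.53 (adjusted p = 0.00286), short of 2-fold. ESRRB was seen at 1.90 to 10.4 normalized counts in Control sh and at 0 in all VprBP sh libraries, a drop of at least 2.27-fold, and ESRRG ran from 3.79 to 15.6 over the 6 libraries. Both had too few reads to be tested.

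The retinoic acid receptors bind all-trans retinoic acid and open retinoid target genes, among them their own gene RARB. RARB (chromosome 3, 24687887 to 25597932) had 0 counts in all 3 Control sh libraries and 43.5 to 45.7 normalized counts in the VprBP sh libraries, at least 14-fold higher. It was the only member at 0 in every Control sh library, a state shared by 2.38% of the genes in the table. The promoter of RARB is known for a retinoic acid response element, a pair of direct repeats spaced by 5 bases, which is shown here because RARB was the receptor counted in VprBP sh and in no Control sh library. RefSeq gives several starts for RARB, and the window holding this element is shown. The 130 bases before that start at chr3:25428133-25428262 (GRCh38.p14, plus strand), with the element in capitals (GGTTCA, 5 bases of any kind, AGTTCA), read as follows.
RARB promoter: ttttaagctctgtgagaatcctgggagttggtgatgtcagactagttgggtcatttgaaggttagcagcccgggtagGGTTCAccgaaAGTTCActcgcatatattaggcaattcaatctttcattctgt
The RARB match begins 53 bases before that start, and the other RARB windows held none. The same letters on either strand occurred in 6 of 35116 RefSeq promoter windows (0.0171%), each reaching from 250 bases before to 50 bases after a start. The letters searched were those of the RARB element itself, so the match was set in advance. A match of letters is a description of the sequence and not a measured site.

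RARG, the receptor type that prevails in skin, read 3622, 3119 and 2955 normalized counts in Control sh and 1063, 1541 and 1524 in VprBP sh. The groups did not overlap, and RARG (chromosome 12, 53210567 to 53232980) fell 2.35-fold (log2 fold change -1.23 ± 0.15 (SE), adjusted p = 3.76e-05). RARA read 1030.4, 873 and 856 in Control sh and 720.1, 1779 and 1769.5 in VprBP sh, where replicate 1 lay below every Control sh library and replicates 2 and 3 lay above them all. With this overlap its difference was within the spread between replicates (log2 fold change 0.63, adjusted p = 0.0682). RARG had been the most abundant RAR per length of exon in Control sh, at 630.4 ± 67.8 normalized counts per kb (SD, n = 3) against 194 ± 20.3 for RARA. In VprBP sh, RARG stood at 268 ± 52.9 and RARA at 300 ± 128 per kb, with overlapping ranges.

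The retinoid X receptors are the shared partners of the RAR, PPAR, thyroid hormone, vitamin D and oxysterol receptors. RXRA (chromosome 9, 134317098 to 134440585) read 6850.4, 6427 and 6291 normalized counts in Control sh and 2593, 3498 and 3543 in VprBP sh. It fell 2.03-fold without overlap (log2 fold change -1.02 ± 0.12 (SE), adjusted p = 3.69e-05), only just past the 2-fold limit, and the fold dropped below that limit without Control sh replicate 1 (log2 fold change -0.99) or without VprBP sh replicate 1 (-0.89). RXRB read 1164, 953 and 935 in Control sh and 1322, 1325 and 1302 in VprBP sh, higher in each VprBP sh library than in any Control sh library but by only 1.29-fold (adjusted p = 0.00832). Per kb of exon, RXRA was the higher of the pair in Control sh (540.1 ± 24.2 against 261 ± 32.6) and RXRB in VprBP sh (338 ± 3.11 against 266 ± 44.4), with ranges that did not overlap in either group.

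The peroxisome proliferator-activated receptors, sensors of fatty acids, differed in direction. PPARG (chromosome 3, 12287368 to 12434356), the driver of fat-cell and urothelial differentiation, read 348, 268 and 215 normalized counts in Control sh and 701, 728 and 749.7 in VprBP sh. It rose 2.62-fold with no overlap (log2 fold change 1.39 ± 0.16 (SE), adjusted p = 3.29e-05). PPARD (chromosome 6, 35342558 to 35428191), the broadly expressed member, read 2092, 1763 and 1719 in Control sh and 833, 951 and 873 in VprBP sh. It fell 2.10-fold (log2 fold change -1.07 ± 0.10 (SE), adjusted p = 9.60e-06), a value that dropped below 2-fold without Control sh replicate 1 (log2 fold change -0.98). PPARA, which governs fatty acid oxidation, read 794, 528 and 527 in Control sh and 1054, 1148 and 1194 in VprBP sh, all VprBP sh values being the higher ones, but its log2 fold change of 0.88 (adjusted p = 6.73e-04) lay short of 2-fold. Without Control sh replicate 1, the highest Control sh value, PPARA passed the limit at a log2 fold change of 1.10. Of the 8 urothelial markers tested, 2 were called higher, both factors of luminal epithelium like PPARG: GATA3 went from a mean of 3.07 ± 4.40 to 1529 ± 205 normalized counts (SD, n = 3) and FOXA1 from 1265 ± 220.4 to 5141 ± 52.5. A further 4 markers of that list (UPK1B, UPK2, KRT5 and TP63) were called lower, UPK2, a luminal uroplakin, from 211 ± 8.62 to 43.6 ± 13.6. GATA3 entered the test only through VprBP sh, and UPK1B and TP63 only through Control sh. The list's median log2 fold change was -1.48.

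VDR (chromosome 12, 47841537 to 47943048), the vitamin D receptor, read 741, 679 and 743 normalized counts in Control sh and 2231, 2633 and 2802 in VprBP sh. The groups lay far apart and VDR rose 3.54-fold (log2 fold change 1.83 ± 0.10 (SE), adjusted p = 2.47e-07). The thyroid hormone receptors showed opposite signs: THRB read 389, 324 and 329 in Control sh and 688, 667 and 673 in VprBP sh, whereas THRA read 1176, 882 and 891 and 475, 711 and 658. Neither set of values overlapped and neither passed 2-fold, with log2 fold changes of 0.96 for THRB (adjusted p = 3.05e-05) and -0.67 for THRA (adjusted p = 0.00484). Without Control sh replicate 1, THRB passed the limit at 1.05.

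The liver X receptors respond to oxysterols and govern cholesterol export. NR1H3 (chromosome 11, 47248300 to 47269033), the inducible LXR alpha, read 96.2, 111 and 101 normalized counts in Control sh and 339, 366 and 397 in VprBP sh. It rose 3.57-fold with no overlap (log2 fold change 1.84 ± 0.14 (SE), adjusted p = 1.48e-06). NR1H2, the broadly expressed LXR beta, read 2097, 2232 and 2040.3 in Control sh and 1456, 2130.3 and 2139.5 in VprBP sh, where replicates 2 and 3 fell within the Control sh range (log2 fold change -0.15, adjusted p = 0.341). NR1H2 thus remained the more abundant LXR per kb of exon in both groups, 397 ± 18.4 against 22.7 ± 1.64 in Control sh and 357 ± 73.4 against 81.0 ± 6.37 in VprBP sh. NR1I3, the xenobiotic receptor CAR, was counted at 2.10 to 10.6 normalized counts over the 6 libraries and was not tested, and its reads may belong partly to TOMM40L, with which it shares 663 exonic bases.

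REV-ERB and ROR receptors compete for the same DNA sites in the circadian clock, the REV-ERBs repressing and the RORs activating. RORA (chromosome 15, 60488284 to 61229302) read 877, 666 and 716 normalized counts in Control sh and 1.12, 6.23 and 9.20 in VprBP sh. It was the member with the strongest fall outside those at 0 (log2 fold change -6.95 ± 0.30 (SE), adjusted p = 4.17e-08). RORA was tested only through Control sh, and its VprBP sh values lay close to the detection floor. RORB had 2.84 to 6.52 normalized counts in Control sh and 0 in every VprBP sh library, a difference of at least 1.73-fold that was not tested. NR1D2, REV-ERB beta, read 1349, 1179.5 and 1159.5 in Control sh and 828, 824 and 773 in VprBP sh, lower without overlap but short of 2-fold (log2 fold change -0.60 ± 0.10 (SE), adjusted p = 2.77e-04).

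NR1D1 (chromosome 17, 40092793 to 40100589), REV-ERB alpha, read 1738, 916 and 879.9 normalized counts in Control sh and 123, 143 and 126 in VprBP sh. The groups did not overlap and NR1D1 fell 9.02-fold (log2 fold change -3.17 ± 0.27 (SE), adjusted p = 3.59e-06), with Control sh replicate 1 well above the other Control sh libraries. NR1D1 and THRA are transcribed towards each other from opposite strands and share 473 exonic bases in GENCODE 44. Their estimated counts were fractional in all 6 libraries, while their sum was a whole number, within 0.02, in all 6, so that reads had been split between the pair. NR1D1 took 49.7% to 59.7% of the summed counts in Control sh but 16% to 20.6% in VprBP sh. Taken as 1 feature, a choice made after seeing the data, the pair fell with a log2 fold change of -1.53 (adjusted p = 9.09e-05), and the division between NR1D1 and THRA is uncertain.

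The orphan receptors of the NR2 group included the member with the largest gain in level per kb of exon, NR2F6, and one of those that fell most, NR2F2. NR2F2 (chromosome 15, 96325938 to 96340263), also called COUP-TFII and known from venous and mesenchymal cells, read 1588, 1626 and 1537 normalized counts in Control sh and 113, 96.6 and 123 in VprBP sh. Replicates were tight on both sides, and NR2F2 fell 14.3-fold (log2 fold change -3.83 ± 0.12 (SE), adjusted p = 5.39e-09). Endothelial markers were lower in the same libraries, as given above, and their part in this was not tested. NR2F6 (chromosome 19, 17231883 to 17245919), a COUP-TF relative known as a repressor, read 3168, 3539.5 and 3351 in Control sh and 6223, 11544 and 10331 in VprBP sh. It rose 2.79-fold with no overlap (log2 fold change 1.48 ± 0.19 (SE), adjusted p = 7.55e-05), with VprBP sh replicate 1 lowest of its group. NR2F1 was low throughout, between 13.0 and 52.5 normalized counts, and its groups overlapped (adjusted p = 0.406). Without VprBP sh replicate 1, the highest of the 6, NR2F1 would have been called lower (log2 fold change -1.23, adjusted p = 0.0146), whereas every other alternative run left it at an adjusted p between 0.203 and 1.

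The testicular receptors NR2C1 and NR2C2, widely expressed repressors, stayed short of 2-fold. NR2C1 read 355, 360.9 and 356 normalized counts in Control sh and 423, 299 and 338 in VprBP sh, values on both sides of the Control sh range (log2 fold change -0.02 ± 0.14 (SE), adjusted p = 0.914). NR2C2 read 943, 808 and 769 in Control sh and 1337, 1377 and 1467 in VprBP sh, higher without overlap and short of 2-fold (log2 fold change 0.73 ± 0.10 (SE), adjusted p = 1.19e-04). NR2C2 shares 7157 exonic bases with MRPS25 on the other strand, and the fractional counts of the pair summed to whole numbers in all 6 libraries, so its level is uncertain. NR2E3, the photoreceptor-specific receptor, was counted at 2.23 to 18 normalized counts and was not tested.

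The NR4A receptors are immediate-early orphan receptors that are switched on within a short time of growth-factor, stress or cyclic AMP signals, and all 3 were called higher in VprBP sh. NR4A2 (chromosome 2, 156324437 to 156342348) read 37.1, 40.2 and 30.3 normalized counts in Control sh and 485, 449 and 409 in VprBP sh. It rose 12.5-fold, with every VprBP sh library far above every Control sh library (log2 fold change 3.64 ± 0.16 (SE), adjusted p = 5.09e-08). NR4A3 (chromosome 9, 99821855 to 99866891) ran from 4.35 to 10.4 normalized counts in Control sh and from 16.9 to 25.7 in VprBP sh (log2 fold change 1.57 ± 0.43 (SE), adjusted p = 0.00788). It was tested only through its high group, and its fold rests on few Control sh reads. NR4A1 (chromosome 12, 52022832 to 52059507) read 452, 251 and 232 in Control sh and 1788, 391.7 and 445 in VprBP sh, where replicate 1 stood far above the rest and replicates 2 and 3 lay within the Control sh range. NR4A1 was the only called member whose groups overlapped (log2 fold change 1.49 ± 0.55 (SE), adjusted p = 0.0318), and without VprBP sh replicate 1 its log2 fold change was 0.43 (adjusted p = 0.177). It also missed the threshold without Control sh replicate 2 (1.35, adjusted p = 0.0916) or replicate 3 (1.30, adjusted p = 0.0957). Over all alternatives run, its adjusted p ranged from 0.0076 to 0.201, and DESeq2 (0.0934) and limma-voom (0.0933) did not call it. DUSP1, another immediate-early gene, was also highest in that library, at 991, 842 and 760.4 normalized counts in Control sh and 1396, 240.0 and 227 in VprBP sh. The part of an immediate-early response in replicate 1 was not tested.

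Promoters of NR4A genes are known for half-sites of the cyclic AMP response element, and that of NR4A3 is shown because it belongs to the subgroup in which all members were called higher. In the 130 bases before the RefSeq start of NR4A3 at chr9:99821755-99821884 (GRCh38.p14, plus strand), the capitals mark TGACG, written CGTCA where it lies on the other strand.
NR4A3 promoter: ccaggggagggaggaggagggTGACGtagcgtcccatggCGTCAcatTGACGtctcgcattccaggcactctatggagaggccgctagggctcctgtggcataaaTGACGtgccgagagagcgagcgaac
The full NR4A3 window held 4 such matches, a number reached by 110 of 35116 RefSeq promoter windows (0.313%). The limit of 4 was taken from this window itself, and NR4A3 was chosen with its call known, so this share is a description only. The window held 69.7% G and C, beside a median of 58.7% over all windows. At least 1 match was found in 24.6% of all windows and in 21.5% of those of the listed receptors. Both windows that RefSeq gives for NR4A1 held 0, and no window was available for NR4A2. Among the 93 windows that RefSeq gives for 39 of the listed receptors, 16.1% held the hormone-response half-site AGGTCA on either strand, beside 13.8% of all windows. None of the 93 held AGGTCA as a direct repeat spaced by 1, 2, 4 or 5 bases. Each of these repeats was found in only 0.00285% to 0.0228% of all windows, too few for 93 windows to show a difference.

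NR5A2 and HNF4G, receptors known from liver and gut, had no counts in VprBP sh. NR5A2 (chromosome 1, 200027614 to 200177420), the liver receptor homologue that regulates bile acid and steroid synthesis, read 82.3, 132 and 141 normalized counts in Control sh and 0 in all 3 VprBP sh libraries, at least 40.5-fold lower. HNF4G, on chromosome 8, a fatty-acid-binding receptor of gut and kidney epithelium, read 103, 82.6 and 127 in Control sh and likewise 0 in VprBP sh, at least 35.7-fold lower. Both entered the test only through Control sh, so the direction of their calls (adjusted p = 6.06e-06 and 4.61e-06) was fixed by the filter. NR6A1, the germ cell nuclear factor, read 271, 209 and 232 in Control sh and 268, 236 and 287 in VprBP sh, with overlapping groups (log2 fold change 0.15, adjusted p = 0.354). RXRG, NR1H4, NR1I2, HNF4A, NR0B1 and NR0B2 had no row in the table and were not analysed here.

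Several of these genes lie side by side in the genome, and neither of the clusters described moved as a whole. On chromosome 3, NR1D2, THRB and RARB lie within 1.65 Mb (23945286 to 25597932, hg38): NR1D2 was lower, THRB higher and RARB present in VprBP sh alone. On chromosome 17 the related genes THRA, NR1D1 and RARA lie within 0.30 Mb (40058290 to 40357643), where NR1D1 fell, THRA was lower short of 2-fold, and RARA gave overlapping groups. Across the clusters, the paralogues THRA (-0.67) and THRB (0.96) had log2 fold changes of opposite sign. NR1D1 and NR1D2 were both lower, and RARA and RARB were both higher on average.

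**Figure D3:**
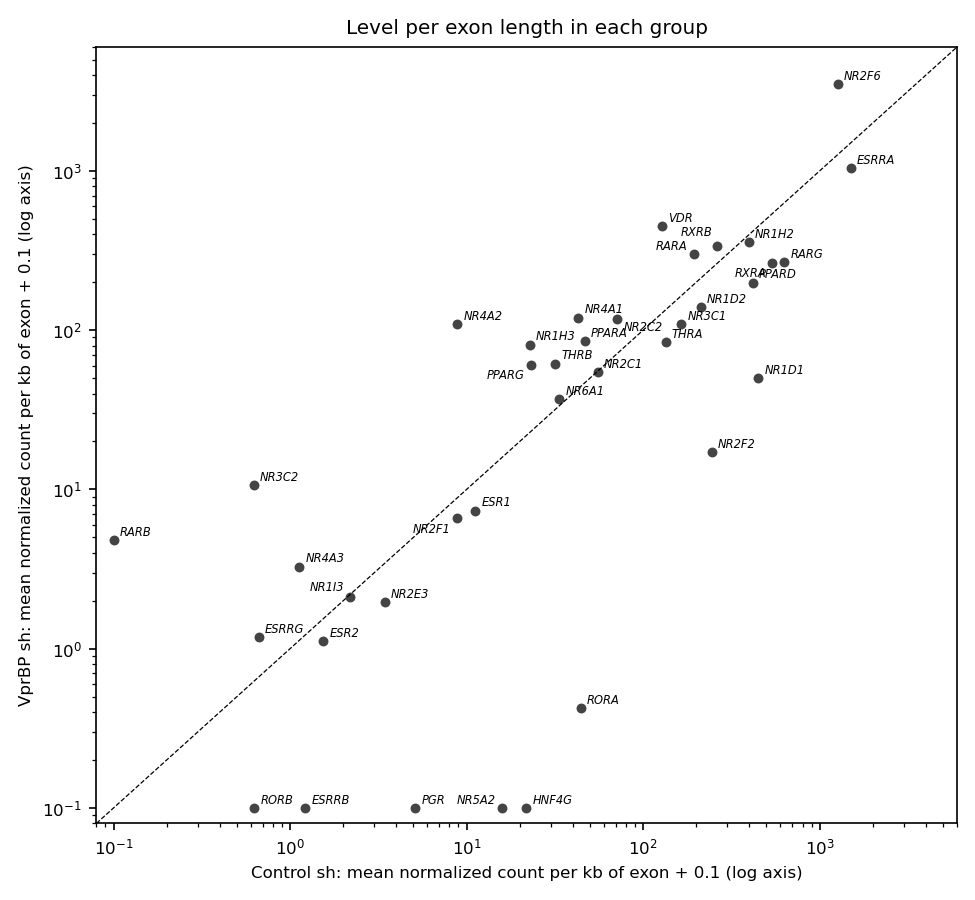
Mean normalized count per kb of exon, plus 0.1, of the 38 nuclear receptor genes in Control sh (horizontal log axis) and VprBP sh (vertical log axis), with a dashed line of equality. NR2F6 and ESRRA are the highest in both groups, and the genes along the lower edge had 0 counts in VprBP sh.

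The order of receptor levels changed between the groups. Per kb of exon, ESRRA (1501 ± 211 normalized counts, SD, n = 3) and NR2F6 (1263 ± 70.0) led in Control sh, followed by RARG (630.4 ± 67.8), RXRA (540.1 ± 24.2) and NR1D1 (448 ± 185). The ranges of ESRRA (1372 to 1744) and NR2F6 (1193 to 1333) did not overlap, while that of NR1D1 (335 to 661) spanned those of RARG (576 to 706) and RXRA (521 to 567) in part or whole. In VprBP sh the order was NR2F6 (3528 ± 1050.3), ESRRA (1037 ± 123), VDR (450.3 ± 51.7), NR1H2 (357 ± 73.4) and RXRB (338 ± 3.11). The ranges of VDR (393 to 494) and NR1H2 (273 to 401) overlapped there, and that of RXRB (334 to 339.9) lay within that of NR1H2, so these neighbours did not differ beyond their spread. Only 2 genes, ESRRA and NR2F6, were among the 5 highest in both groups. Together the members made up between 0.141% and 0.161% of each Control sh library and between 0.144% and 0.184% of each VprBP sh library.

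**Figure D4:**
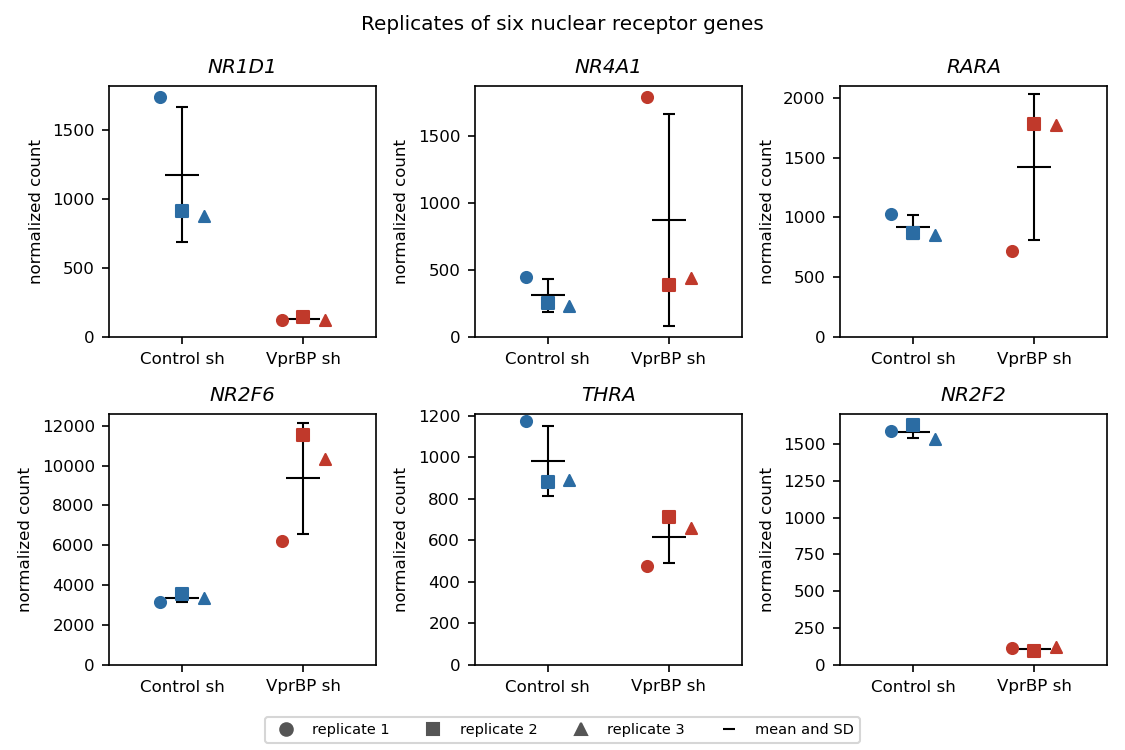
Normalized counts of NR1D1, NR4A1, RARA, NR2F6, THRA and NR2F2 in each library, by replicate number, with the mean and SD of each group (n = 3). Replicate 1 stands apart for NR1D1 in Control sh and for NR4A1, RARA and NR2F6 in VprBP sh, whereas the 3 libraries lie close together for NR2F2.

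Replicate 1 differed from replicates 2 and 3 in both groups. Of the 29 members with at least 50 normalized counts, replicate 1 lay more than 1.5-fold above both others for PPARA, NR1D1 and NR4A1 and below both for NR5A2 in Control sh. In VprBP sh it lay above both for NR4A1 and below both for RARA, RORA and NR2F6. By the same measure, replicate 2 stood apart for 1 member in Control sh and for 0 in VprBP sh, and replicate 3 for 0 in either. Over all genes with enough counts in the pair compared, the chi-square per degree of freedom between replicates 2 and 3 was 2.50 in Control sh and 2.36 in VprBP sh. The pairs that include replicate 1 gave 17.6 to 29.1. Without Control sh replicate 1, NR1D1 still fell (log2 fold change -2.79), and without VprBP sh replicate 1, NR2F6 (1.70) and RORA (-6.55) kept their calls while RARA, still short of 2-fold, stood at 0.95 (adjusted p = 4.36e-05 against 0.0682 with all libraries, and 0.11 to 0.219 without any one of the others).

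Genes that act with the receptors were read from lists of their chaperones, cofactors, ligand enzymes and textbook targets. Of 130 such genes tested, 70 were called (53.8%, each gene counted once), beside 46.4% of all genes. Some had at most 10 counts in every library of a group and entered the test only through their high group. ALDH1A1, LRAT, RARRES1 and CIART did so through VprBP sh, and FABP5, CYP24A1, THBD and TGM2 through Control sh. The direction of their calls was fixed by the filter. The steroid receptor chaperones, which hold the receptors ready for ligand, had 4 called higher, 1 called lower and 8 not called of 13 tested, with a median log2 fold change of -0.26 beside 0.08 over all genes. Among them BAG1 rose from 793 ± 236 to 3408 ± 362 normalized counts (SD, n = 3, adjusted p = 8.11e-06), CDC37 rose 3.52-fold, and FKBP5, also a glucocorticoid target, rose 2.07-fold, while HSP90AB1 fell 2.01-fold, at the edge of the limit. Of 13 coactivators tested, 2 were higher and 2 lower (median -0.36). NCOA1 and PPARGC1B rose (2.66-fold and 2.79-fold), and NCOA3 and NCOA7 fell (3.16-fold and 2.80-fold), so that NCOA1 and NCOA3, both steroid receptor coactivators, differed in direction. PPARGC1A had no row in the table. Of 9 corepressors tested, 1 was higher and 1 lower (median -0.25), the higher being NRIP1, which ligand-bound receptors recruit and which rose 3.67-fold.

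Enzymes and carriers of the receptors' ligands held some of the largest folds of these lists. Of 14 retinoid genes tested, 4 were higher and 6 lower (median -0.31). ALDH1A1, which makes retinoic acid, rose from 8.79 ± 1.03 to 4989.8 ± 346 normalized counts (log2 fold change 9.13 ± 0.14 (SE), adjusted p = 2.47e-10), LRAT, which stores retinol as esters, went from 0 in every Control sh library to 83.7, 110.1 and 113 in VprBP sh (at least 32.1-fold), and the retinol-uptake receptor STRA6 rose 2.77-fold. FABP5, which carries retinoic acid to PPARD, went from 5533 ± 673 to 0 in all VprBP sh libraries (at least 1894-fold lower). RDH10, which oxidises retinol, fell 2.76-fold. CRABP2, which delivers retinoic acid to the RARs, read 4672 ± 141 and 9177 ± 1163, short of 2-fold (log2 fold change 0.97). FABP5 and HSP90AB1 have near-identical pseudogene copies, and their counts are less certain for that.

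Of 18 genes of steroid, vitamin D and thyroid hormone metabolism tested, 11 were higher and 3 lower (median 1.43). HSD17B2, which inactivates estradiol, rose 9.81-fold, the sterol 27-hydroxylase CYP27A1 6.34-fold and the reductase SRD5A3 5.76-fold. CYP27B1, which activates vitamin D, fell 11.5-fold (log2 fold change -3.53 ± 0.21 (SE), adjusted p = 2.72e-07), and CYP24A1, which breaks it down, went from 3420.4, 1794 and 1753 normalized counts to 0 in all VprBP sh libraries (at least 795-fold lower). CYP24A1 is also a vitamin D receptor target, and of the 4 such targets tested 3 were lower and 0 higher. THBD, the endothelial and epithelial receptor thrombomodulin, went from 14929 ± 1025 to 0 (at least 5109-fold lower), and CD14, a monocyte receptor, fell 2.09-fold. The median of these 4 was -5.34 with the genes at 0 set at their bound. VDR itself rose in the same libraries.

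**Figure D5:**
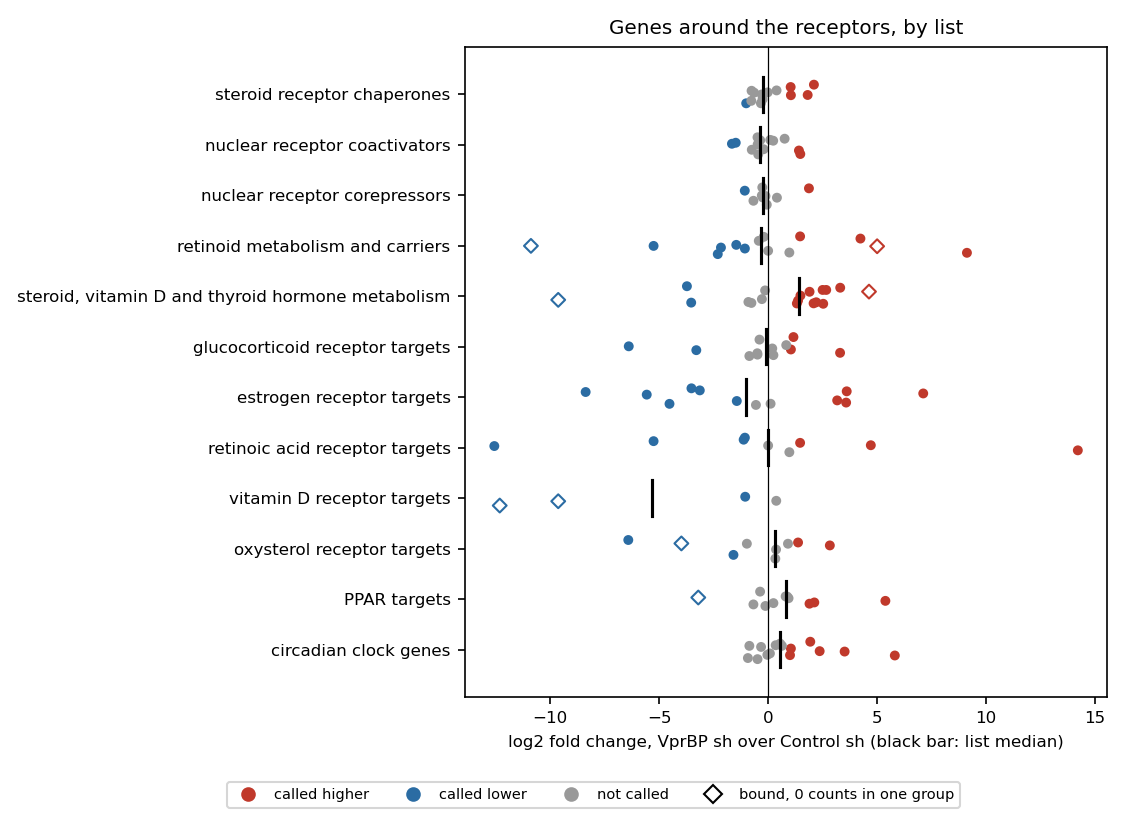
Log2 fold change of VprBP sh over Control sh for each tested gene of 12 lists of genes around the receptors, coloured by call, with a black bar at each list's median and open diamonds at the lower bound for genes with 0 counts in a whole group. The list of steroid, vitamin D and thyroid hormone metabolism has its median furthest above 0 and the vitamin D receptor targets furthest below, and most other lists hold called genes on both sides.

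The targets of a given receptor also divided in direction. Of 12 glucocorticoid receptor targets tested, 3 were higher and 2 lower (median -0.10): TSC22D3 (GILZ) rose from 744 ± 14.6 to 7343 ± 515 normalized counts (log2 fold change 3.30 ± 0.09 (SE), adjusted p = 2.33e-09) and GLUL rose 2.24-fold, whereas the kinase gene SGK1 fell 82.4-fold and SLC19A3 10.1-fold. Of 12 estrogen receptor targets tested, 4 were higher and 6 lower (median -0.999). XBP1, the secretory stress factor, rose 12-fold, MYB 12.3-fold and RERG, a growth-inhibiting small GTPase, 144-fold, while CCND1, which encodes cyclin D1, fell from 119220 ± 4989 to 5171 ± 562 (log2 fold change -4.53 ± 0.11 (SE), adjusted p = 1.65e-09), AREG 47.7-fold and CA12 360.3-fold. GREB1, a target that depends closely on estrogen receptor in breast cells, read 20.9 ± 6.42 and 14.4 ± 5.83 (adjusted p = 0.236).

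Of 9 retinoic acid receptor targets tested, 3 were higher and 4 lower (median 0.00). RARRES1 had 1.16, 0 and 0 normalized counts in Control sh and 9820.3, 8738 and 8686 in VprBP sh, and PLAAT4 rose 26.4-fold. TGM2, tissue transglutaminase, went from 6548, 6700.4 and 6305 in Control sh to 1.12, 1.04 and 0.767 in VprBP sh, below the detection floor, and DHRS3 fell 2.10-fold. Of 9 oxysterol receptor targets tested, 2 were higher and 3 lower (median 0.33): the cholesterol exporter ABCG1 rose 7.10-fold and MYLIP 2.59-fold, while ABCA1, the related exporter, fell 3.04-fold (log2 fold change -1.59 ± 0.34 (SE), adjusted p = 0.00179) and the lipoprotein APOE 83.5-fold. Of 11 PPAR targets tested, 3 were higher and 1 lower (median 0.80), the fatty-acid transporter CD36 rising from 29.4 ± 15.4 to 1217 ± 89.7 and SLC25A20, a carrier for fatty acid oxidation, 3.72-fold. Of 15 circadian clock genes tested, 6 were higher and 0 lower (median 0.55), among them CIART (11.4-fold), PER3 (5.14-fold) and NPAS2 (3.76-fold).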

How the data were processed

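Per the published methods and the labels, total RNA of 6 libraries (3 Control sh, 3 VprBP sh) was sequenced, reads were aligned to hg38 with STAR using GENCODE annotation, and genes were quantified in Partek. The values deposited by the authors are estimated counts per gene without the upper quartile scaling their methods describe (59.4% are exactly whole, 73.7% within 0.02). It covers 21494 genes that each sum to at least 10. The design had been written for counts, so estimated counts were rounded to whole numbers for testing.

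The comparison used edgeR 4.0.16 in R 4.3.3, with upper quartile factors (quantile 0.75), its low-count filter (minimum 10), the quasi-likelihood test and Benjamini-Hochberg adjustment over 16756 genes; calls needed an adjusted p under 0.05 and a change over 2-fold. It stands in for Partek's Gene Specific Algorithm, which was not used here. At the same limits it called 7778 genes, far more than the paper reported with that algorithm, and the reason was not tested. The SE was taken from the fold change on the log2 scale and the F statistic (their ratio after taking the square root of F). The script was tested on simulated data. The floor was 3 counts per library, and covers counting error only. Levels per kb used exonic lengths of GENCODE 44, and promoter windows came from RefSeq (GRCh38.p14). The receptors and the lists around them were chosen with earlier results of these data known. Receptors whose mean reached 50 normalized counts in either group are given by library, and list genes are the 3 called with the largest change in each direction at a mean of at least 100, plus PPARGC1A, NRIP1, FKBP5, CYP24A1, CRABP2 and GREB1. GATA3, FOXA1 and DUSP1 were named in addition, and some list genes that the rule selects are not reported here. Alternatives were TMM or library size scaling, DESeq2 1.42.0, limma-voom (limma 3.58.1), other filters, a test against 2-fold, a replicate block, replicates 2 and 3 summed, and leaving out each library.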

Additional observations from a re-analysis of the deposited data

How the results depend on the processing

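DCAF1 kept its sign throughout but missed the threshold with library size scaling (log2 fold change -0.37, adjusted p = 0.0851), the test against a 2-fold change (-0.58, adjusted p = 1) and replicates 2 and 3 summed (-0.46, adjusted p = 0.0839); leaving out 1 library gave -0.82 to -0.46. Requiring at least 10 counts in every sample tested fewer genes (13103, with 25 receptors among them), since it removes those absent from a group. That setting called 4690 of the 13103 genes (2694 higher, 1996 lower), 5 of the 25 receptors lower and 45 pathway genes. Without any filter 9575 of 21494 genes were called, and 11 of 38 receptors were called lower. Leaving out 1 library gave 8 to 11 receptors higher and 7 to 9 lower. NR1H2, not called, turned positive with library size scaling (0.059) and without VprBP sh replicate 1, leaving out 1 library giving -0.247 to 0.006. NR2C1, not called, did so with library size scaling (0.195), with replicates 2 and 3 summed (0.043), and without VprBP sh replicate 2 or 3, leaving out 1 library giving -0.164 to 0.082. The cause was not tested. The test against a 2-fold change lost RARG, RXRA, PPARD, NR4A1 and NR4A3. Library size scaling lost RXRA (-0.81) and PPARD (-0.86) and added PPARA (1.09) and THRB (1.17).

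The groups share replicate numbers, and deviations of same-numbered libraries correlated at -0.0647, 0.0172 and -0.0525. The main fit did not pair them, and whether same-numbered libraries shared a batch was not tested. With the replicate block 7686 genes (4031 higher, 3655 lower), 9 higher and 9 lower receptors and 69 pathway genes were called, and DCAF1 stood at -0.60 (adjusted p = 0.0274). Depth limits the low receptors: 5, with at most 19 counts in any library, were not tested.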
